A study of Saccharomyces cerevisiae with 4 samples.

Results

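Chromosome 9 of the budding yeast Saccharomyces cerevisiae was examined by chromatin immunoprecipitation on tiling microarrays (ChIP-chip). Its members are the 1512 data probes placed on chromosome 9 that were not excluded on any of the 4 arrays, of 41775 data probes in all, and no probe of the chromosome was lost to that condition. The probe starts and ends run from position 19615 to 438728 of the files' own coordinates, whose genome build is not given in the sources used here. By the files' annotation 1105 of the probes lay inside genes, 193 in promoters, 127 in divergent promoters and 72 downstream of a gene, and 15 had no annotation. The probes inside genes covered 197 genes of 5489 tested, with a median of 4 probes per gene and 16 genes read by 1 probe alone. The widest step between neighbouring probe starts was 5467 bp, from 205164 to 210631.

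The study mapped 2 subunits of RNA polymerase II, each carrying a TAP tag (an affinity tag that binds IgG beads) in a strain of its own. One group was the strain with TAP-tagged Rpb3 (2 arrays) and the other the strain with TAP-tagged Rpb4 (2 arrays), both given as S288c in the labels and both grown to log phase in YPD, a rich medium, and held at 25 °C until the culture reached an optical density near 0.8. All cells were fixed with 1% formaldehyde for 20 min, and no group received another treatment. On each array the immunoprecipitated DNA (IP, Cy5 dye) was hybridised together with whole-cell extract DNA (WCE, Cy3 dye), which is the input before precipitation. No untagged strain or mock precipitation was used here, and since every array had the dyes the same way round, dye bias remains in the ratios. Whether the paired arrays of each strain stem from independent cultures is not given in the labels, and the p-values therefore measure only the spread between these arrays, which may be technical.

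RNA polymerase II transcribes the protein-coding genes. Rpb3 is part of the core of the enzyme, and Rpb4 forms with Rpb7 a stalk that can dissociate from the core in yeast. In ChIP-chip the IP channel follows both the polymerase on a stretch of DNA and the amount of that DNA in the extract. The WCE channel is read as the amount of DNA, and the IP/WCE ratio divides the WCE signal out of the IP signal. At single genes described below, the WCE difference departed from that of the whole chromosome, and such departures also enter the ratio. Chromosome 9 carries RPB3 itself, several genes of lysine, histidine and serine synthesis, the DAL cluster for the use of allantoin as a nitrogen source, and 2 neighbouring genes for multidrug transporters, QDR2 and QDR1.

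All values are log2 values relative to the median data probe of the same array, so that 0 marks the median probe, not a lack of signal. A difference is Rpb4 minus Rpb3. Over the chromosome 9 probes, foreground exceeded background by a median factor of 108 to 147 (IP) and of 157 to 235 (WCE), depending on the array. No chromosome 9 probe of either channel was within 3 background SDs of background, and none was saturated.

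The whole of chromosome 9 stood above the other chromosomes in the extract of the Rpb3 strain and not in that of the Rpb4 strain. The median WCE signal of its probes was 0.46 and 0.50 on the Rpb3 arrays, and 0.06 and 0.05 on the Rpb4 arrays. The medians of the other 15 nuclear chromosomes ran from -0.05 to 0.12 on the Rpb3 arrays and from -0.04 to 0.11 on the Rpb4 arrays. Both Rpb3 arrays were therefore above every other chromosome, by more than the whole range of those chromosomes, and both Rpb4 arrays lay inside it, with 13 chromosomes below. As a fold over the median probe, chromosome 9 was at 1.39 with Rpb3 and at 1.04 with Rpb4.

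The precipitated DNA showed the same order. The median IP signal was 0.50 and 0.58 on the Rpb3 arrays, and 0.01 and -0.01 on the Rpb4 arrays, while the other chromosomes ran from -0.13 to 0.05 with Rpb3 and from -0.07 to 0.06 with Rpb4. The difference between the groups was -0.42 in WCE (1.34-fold lower with Rpb4, from -0.44 to -0.40 over the 4 pairings of arrays) and -0.54 in IP (1.45-fold lower, from -0.59 to -0.49). On the other chromosomes the same differences ran from -0.01 to 0.03 in WCE and from -0.0013 to 0.06 in IP. An exact permutation test of 2 against 2 arrays cannot give a two-sided p below 0.333, so these medians are given as descriptions.

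**Figure D1:**
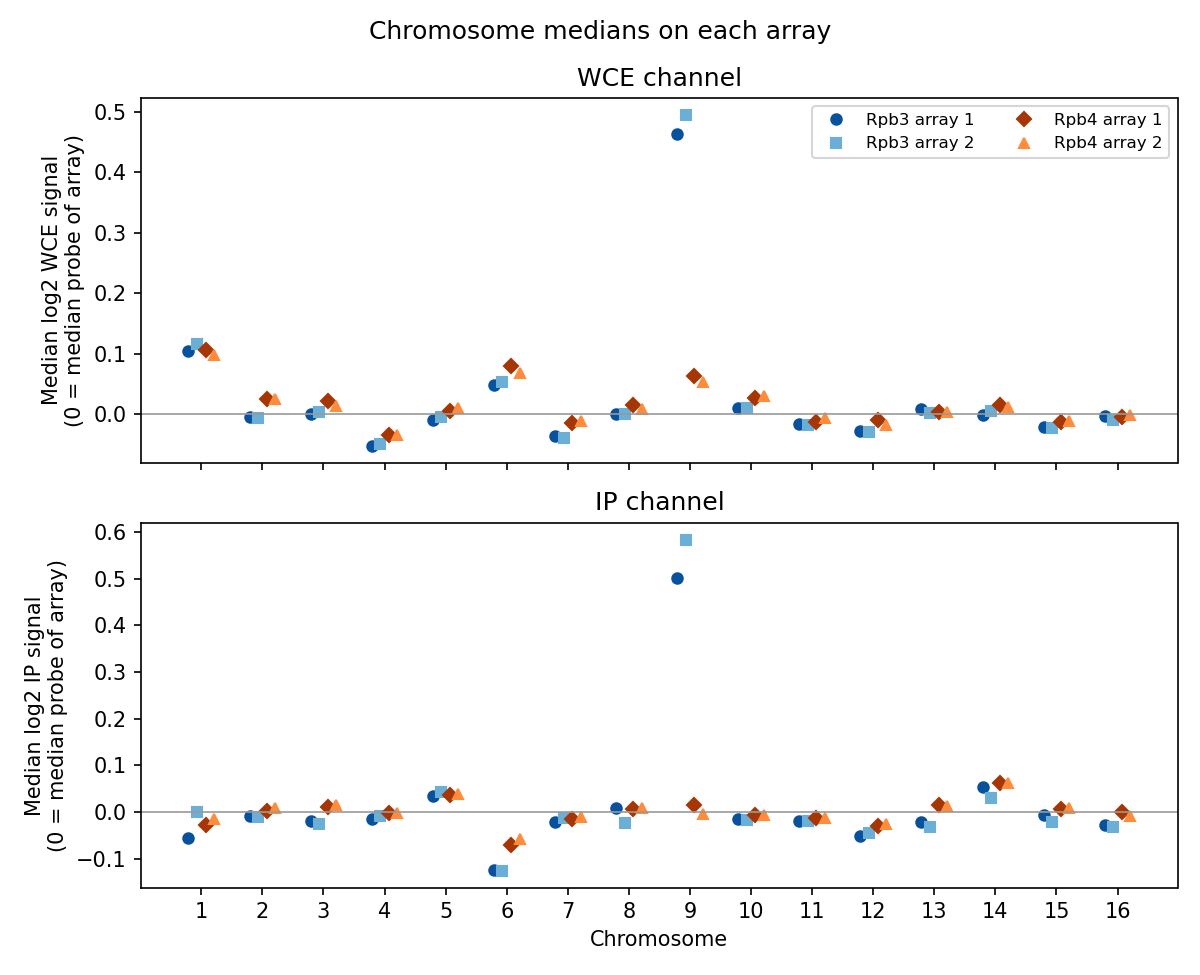
Median log2 signal of the probes of each nuclear chromosome (horizontal axis) on each of the 4 arrays, for the WCE channel (upper panel) and the IP channel (lower panel), where 0 is the median probe of the array. Each point is 1 array. On chromosome 9 the Rpb3 arrays lie at 0.46 and 0.50 (WCE) and 0.50 and 0.58 (IP), apart from all other points, and the Rpb4 arrays lie near 0.

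In the IP/WCE ratio most of this difference was divided out. The median ratio of chromosome 9 was 0.06 and 0.07 on the Rpb3 arrays and -0.02 on both Rpb4 arrays, a difference of -0.08. That difference was below the lowest of the other chromosomes, whose values ran from -0.03 to 0.03. Its sign depended on the processing: with a loess fit within arrays it was 0.23. On Rpb3 array 2 chromosome 9 stood above all 15 others in the ratio and on Rpb3 array 1 above 14 of them.

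Probe by probe, the WCE signal was lower with Rpb4 at 1400 of the 1512 probes (92.6%) and higher at 10 (limma, adjusted p under 0.05 over all probes of the genome). Over all probes of the genome 5.32% were called lower and 2.97% higher, and outside chromosome 9 the share called lower was 2.03%. At 1482 probes of chromosome 9 (98.0%) both Rpb4 arrays were below both Rpb3 arrays, which held at 23.0% of all probes. In the IP channel both Rpb4 arrays were below both Rpb3 arrays at 1467 probes (97.0%, against 29.7% of all probes). Of these IP differences 7 were called lower and 0 higher (limma, against 0.166% and 0.0794% of all probes), although 1312 and 3 probes were past an unadjusted p of 0.05 in these directions. With 1 array left out, the fit takes its spread from the other strain's pair alone, so the calls of such fits are not listed. Without Rpb3 array 1, Rpb3 array 2, Rpb4 array 1 and Rpb4 array 2 the median IP difference was -0.58, -0.50, -0.55 and -0.53.

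The difference ran the length of the chromosome. In 21 windows of 20 kb with at least 30 probes, the median WCE difference lay between -0.47 (window from 120000 to 139999) and -0.36 (window from 240000 to 259999). None of 567 windows of the same length on the other chromosomes came as low as the highest of these, since theirs ran from -0.08 to 0.30. The IP difference lay between -0.65 and -0.42, against -0.45 to 0.36 elsewhere, where 1 window came as low as the highest of chromosome 9. The arms did not stand apart. The left arm (1216 probes, up to 355280) had a WCE difference of -0.43 and an IP difference of -0.55, and the right arm (294 probes, from 356184) had -0.42 and -0.55. The 8 leftmost probes, at positions up to 25000, had a WCE difference of -0.34, and the 87 probes in the last 25 kb of the tiled stretch had -0.43.

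**Figure D2:**
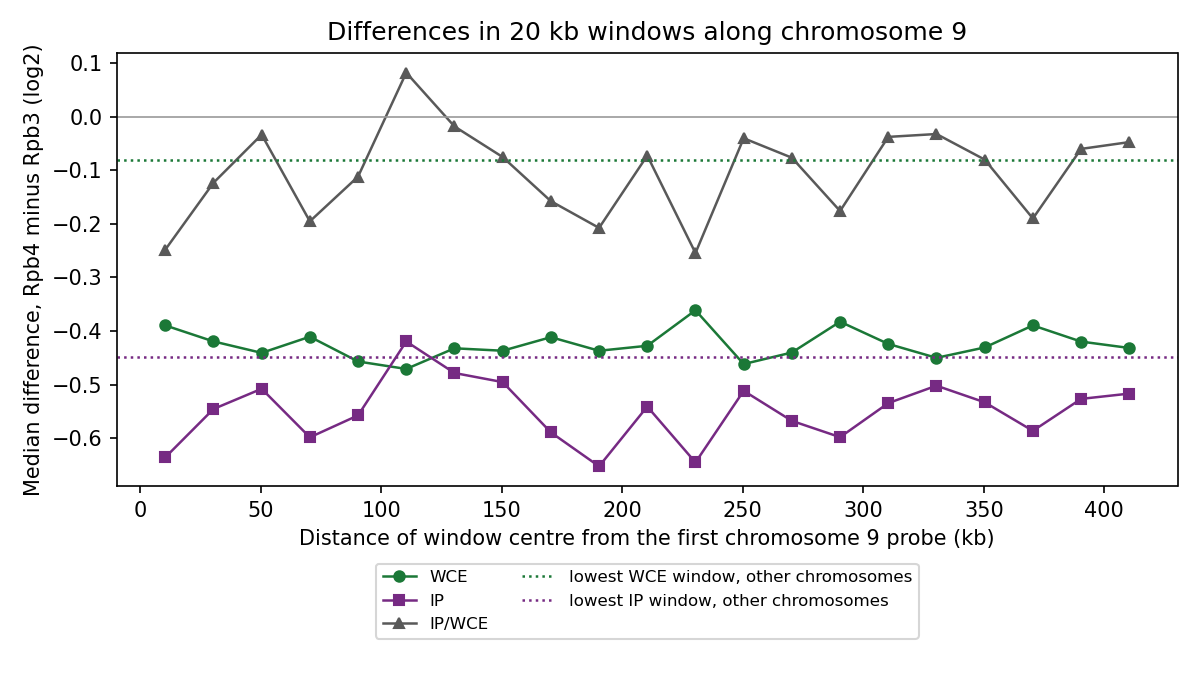
Median difference (Rpb4 minus Rpb3, log2) of the WCE, IP and IP/WCE values in 20 kb windows of chromosome 9, against the distance of the window centre from the first probe in kb. Dotted lines mark the lowest WCE and IP windows of the other 15 nuclear chromosomes (-0.08 and -0.45), and every WCE window of chromosome 9, from -0.47 to -0.36, lies below its line.

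The 112 probes that were not called lower in WCE were scattered in 66 runs along the chromosome, and 90 of them still had a difference below 0. The longest run of probes called lower held 155 probes, from 144027 to 185513, from the end of HIS5 up to PRK1. The longest run not called lower held 12 probes, from 418950 to 422236, and covered part of MGA2, LYS1, NRE1 and part of IRC24. The next held 11 probes, from 185769 to 188645, over PRK1, LYS12 and RSM25. Of the 22 probes with a WCE difference above 0, 10 lay between 419417 and 422236 and 6 between 185967 and 187650, in the same stretches, and 1 was the leftmost probe of HIS5 (0.74, limma adjusted p = 0.000924).

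Among genes, 182 of the 197 were lower with Rpb4 in WCE and 3 were higher (limma, against 5.81% and 3.44% of all genes). The difference was below 0 in 194 genes and had a median of -0.42, against 0.01 over the genes of other chromosomes. The 3 genes with a higher WCE signal were LYS1 (0.87), LYS12 (0.54) and NRE1 (0.19). Among the genes past the threshold the 5 of largest decrease were QDR2 (-0.88), FMC1 (-0.63), RPI1 (-0.60), SYG1 (-0.56) and AGE2 (-0.53), which encode a multidrug transporter, an assembly factor of the mitochondrial ATP synthase, a transcriptional regulator, a plasma membrane protein and a regulator of vesicle traffic. The first and the last genes of the tiled stretch were CSS1 at -0.33, which did not pass (adjusted p = 0.117), and YIR042C at -0.48, which did (adjusted p = 0.00178).

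In the IP channel 96 genes were lower with Rpb4 and 0 higher (limma, against 3.04% and 0.474% of all genes), and at an unadjusted p under 0.05 there were 193 and 1. The median IP difference over the 197 genes was -0.54, and it was below 0 in 196 genes, all but QDR2. With each array left out in turn, the median IP difference of all chromosome 9 probes lay between -0.58 and -0.50. The count of 96 rests on the spread between the 2 arrays of each strain.

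Both channels departed from the shift of the chromosome in opposite directions at many genes. After each chromosome was centred on its own median probe, the WCE and IP differences had opposite signs in 148 of the 197 genes (75.1%), against 56.2% of 5277 genes on the other nuclear chromosomes. Over the 197 genes Pearson's r between the 2 differences was 0.60 and Spearman's rho was -0.62. The sign of r rested on YIL014C-A, described at the end, without which r was -0.85 and rho -0.65 over 196 genes. On the other nuclear chromosomes r was 0.37 and rho -0.21 with no gene left out, so that r is not a like reference for the -0.85. These values describe the genes of the same 4 arrays and have no p. In that fit 12 genes of chromosome 9 were higher with Rpb4 in WCE and 2 lower (limma, against 2.39% and 2.11% of all genes). The largest were LYS1 (1.29), LYS12 (0.96), NRE1 (0.61), YIL134C-A (0.39, 1 probe) and HIS5 (0.37), with QDR2 (-0.46) and FMC1 (-0.21) the lower ones. The HIS5 value is a mean over 5 probes, of which the leftmost stood at 0.74 without this centring. In IP only QDR2 passed (0.219% of all genes were higher and 0.255% lower). In the ratio 1 gene was higher and 9 were lower (against 0.893% and 2.48%). These counts rest on the spread between the 2 arrays of each strain, and calls with 1 array left out are not listed.

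**Figure D3:**
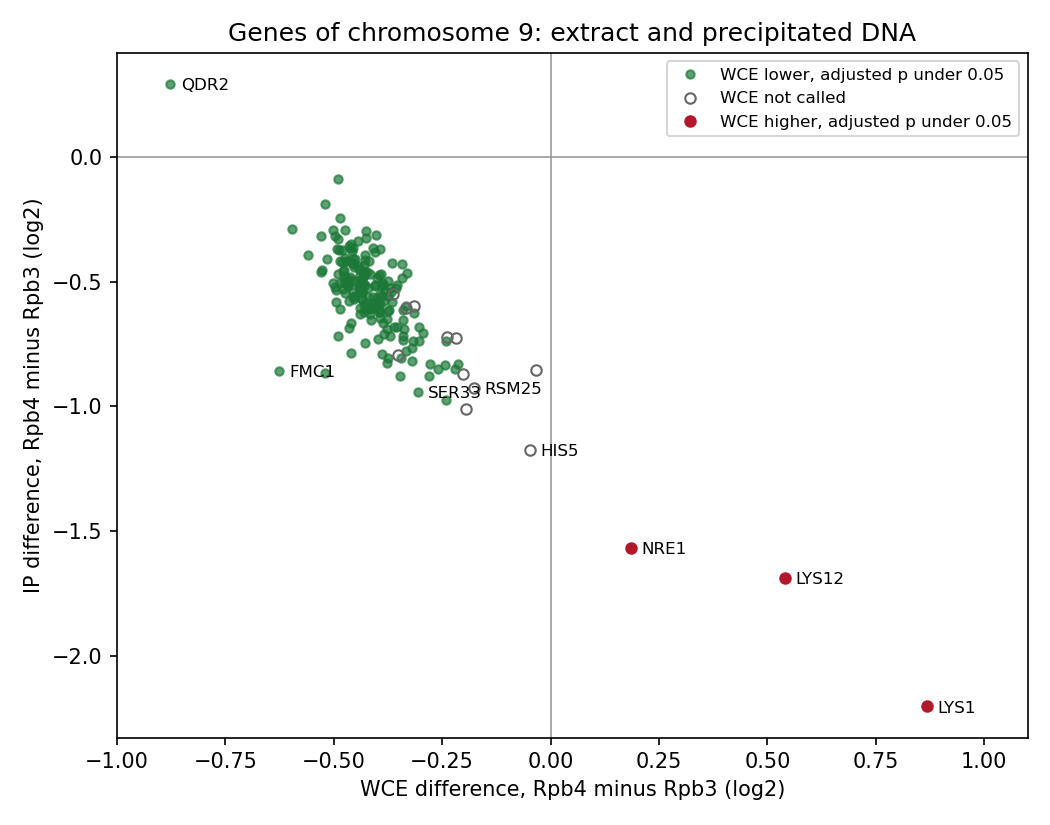
Difference (Rpb4 minus Rpb3, log2) in the WCE channel (horizontal) and in the IP channel (vertical) for 196 genes of chromosome 9, 1 point per gene, with the genes coloured by their WCE call (limma). YIL014C-A lies outside the axes and is not drawn. Most genes cluster near -0.42 and -0.54, with LYS1, LYS12, NRE1 and HIS5 to the lower right and QDR2 to the upper left.

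In the IP/WCE ratio 12 genes of chromosome 9 were lower with Rpb4 (6.09%, against 2.51% of all genes) and 1 was higher (0.508%, against 0.929%; limma). The lower genes included 5 of the 7 genes of the amino acid synthesis list, and the higher gene was QDR2. That list also holds the regulatory genes MET28 and MET30, and it was set with earlier results of these data known. Without Rpb4 array 2 the ratio differences of LYS1, LYS12, NRE1, HIS5 and QDR2 were -2.92, -2.15, -1.75, -1.11 and 1.17. At the probe level 15 probes were lower and 2 higher in the ratio (limma, against 0.727% and 0.171% of all probes). Both Rpb4 arrays were below both Rpb3 arrays in the ratio at 642 probes (42.5%, against 28.6% of all probes). Both were above at 231 probes (15.3%, against 26.4% on the other 15 nuclear chromosomes).

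LYS1 (YIR034C, probes from 419609 to 420666), which encodes saccharopine dehydrogenase, the last enzyme of lysine synthesis, differed most. Its IP/WCE level was 2.90 and 3.62 on the Rpb3 arrays, and 0.34 and 0.06 on the Rpb4 arrays. It was the highest gene of the chromosome with Rpb3 and stood near the median probe with Rpb4 (0.20, adjusted p = 0.402 against 0). The difference was -3.06 ± 0.27 (SE from the limma fit over both groups, n = 2 arrays each; adjusted p = 0.0195), which is 8.35-fold. The IP signal was 2.02 and 2.58 with Rpb3, and 0.21 and -0.02 with Rpb4, a difference of -2.20. The WCE signal was -0.84 and -1.03 with Rpb3, and -0.10 and -0.03 with Rpb4. In both channels and in the ratio the groups did not overlap, and both Rpb4 arrays were above both Rpb3 arrays in WCE, the reverse of the chromosome median.

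LYS12 (YIL094C, probes from 186551 to 187650), on the left arm, encodes homoisocitrate dehydrogenase, an earlier enzyme of the same pathway. Its IP/WCE level was 2.61 and 3.02 with Rpb3, and 0.67 and 0.53 with Rpb4, a difference of -2.21 ± 0.16 (limma adjusted p = 0.0145). The WCE signal was -0.55 and -0.49 with Rpb3, and 0.01 and 0.03 with Rpb4. The IP signal was 2.02 and 2.52 with Rpb3, and 0.64 and 0.53 with Rpb4. The arrays of the groups were thus apart in each channel, by more than the distance between arrays of 1 group.

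NRE1 (YIR035C, probes from 421143 to 421668) neighbours LYS1 and encodes a putative reductase. It had an IP/WCE level of 1.81 and 2.17 with Rpb3, and of 0.24 and 0.25 with Rpb4, a difference of -1.74 ± 0.13 (limma adjusted p = 0.0154). Its WCE signal was 0.07 and 0.13 with Rpb3 and 0.30 and 0.28 with Rpb4. That WCE difference was 0.17 without Rpb4 array 1 and 0.20 without Rpb4 array 2. Of the next genes of the same stretch, IRC24 stood at -0.24 in WCE, between NRE1 and the chromosome's median, and HYR1 and GTT1 at -0.49. The IRC24 call did not pass with the median over its probes (-0.13).

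HIS5 (YIL116W, probes from 142957 to 144086), the histidinol-phosphate aminotransferase gene of histidine synthesis, had an IP/WCE level of 1.46 and 1.69 with Rpb3, and of 0.47 and 0.46 with Rpb4. Its difference was -1.11 ± 0.10 (limma adjusted p = 0.0189). The WCE signal of HIS5 was -0.26 and -0.27 with Rpb3 and -0.30 and -0.33 with Rpb4, a difference of -0.05 that did not pass (adjusted p = 0.294), and its median over probes gave -0.31, which did. The IP signal was 1.16 and 1.42 with Rpb3, and 0.13 and 0.09 with Rpb4.

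SER33 (YIL074C), which encodes an enzyme of serine synthesis, had IP/WCE levels of 0.52 and 0.68 with Rpb3, and of -0.02 and -0.01 with Rpb4 (difference -0.62, limma adjusted p = 0.0374). HIS6, a histidine synthesis gene next to RPB3, stood at 0.55 and 0.70 with Rpb3, and at 0.09 and 0.00 with Rpb4 (difference -0.58, adjusted p = 0.0482). The other members of that list were MET28, a regulator of sulfur amino acid genes, with a difference of -0.44 (adjusted p = 0.0636), and MET30, an F-box protein gene of the same regulation, with 0.20 (adjusted p = 0.215). The amino acid list as a whole had a median IP/WCE difference of -0.62, against 0.02 over all genes tested and -0.11 over the genes of chromosome 9. In WCE 2 of its 7 genes were higher and 4 lower, against 1.52% and 92.4% of all chromosome 9 genes. In IP 6 were lower, against 48.7%.

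The other genes with a lower ratio had smaller differences. RSM25, a mitochondrial ribosomal protein gene next to LYS12, fell by 0.73, PRM5, a cell surface gene next to HIS5, by 0.65, and PRK1, a kinase gene on the other side of LYS12, by 0.60. The PRK1 value rested on few of its 9 probes, since the median over them gave -0.16 and did not pass, and the 2 probes nearest LYS12 stood at -1.66 and -2.19. In the fit on medians over probes PRM5 (-0.78), YIL165C (-0.48) and YIR018C-A (-0.43) did not pass either. Unlike that of PRK1, these values were no smaller in size than those from means. RPR2, an RNase P subunit gene, fell by 0.50, YIL165C by 0.48 and YIR018C-A by 0.43, and RPR2 and YIR018C-A rest on 1 probe each. With a loess fit within arrays the difference of RPR2 turned to 0.03 and that of YIL165C to 0.04, and of the 12 genes 4 passed there as lower, namely LYS1, LYS12, NRE1 and HIS5. The genes LYS1 and NRE1, and PRK1, LYS12 and RSM25, are neighbours, and so are PRM5 and HIS5, so the 12 genes are fewer stretches of DNA than genes.

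QDR2 (YIL121W, probes from 132668 to 133733) was the gene that went the other way. Its IP/WCE level was -0.09 and -0.01 with Rpb3, and 1.13 and 1.15 with Rpb4, a difference of 1.19 ± 0.06 (limma adjusted p = 0.0114), or 2.27-fold higher. The WCE signal was 0.72 and 0.71 with Rpb3, and -0.15 and -0.18 with Rpb4, the lowest difference of the chromosome outside YIL014C-A at -0.88. The IP signal was 0.59 and 0.69 with Rpb3 and 0.94 and 0.93 with Rpb4, so that QDR2 alone had both Rpb4 arrays above both Rpb3 arrays in the gene means of IP, with a difference of 0.29 that did not pass (adjusted p = 0.0957). Relative to the median of the chromosome the IP difference was 0.83 and passed (limma adjusted p = 0.0291).

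QDR1, the neighbouring transporter gene, had a WCE difference of -0.53 (adjusted p = 0.00178) and an IP/WCE difference of 0.23 that did not pass (adjusted p = 0.153). With a loess fit within arrays the IP/WCE difference of QDR1 was 0.49 and passed. PDR11, a transporter gene of sterol uptake further along the left arm, had -0.43 in WCE and -0.03 in the ratio (adjusted p = 0.780). Of the 3 multidrug transporter genes 1 was therefore higher in the ratio, against 0.508% of all chromosome 9 genes. All 3 were lower in WCE, as were 92.4% of all chromosome 9 genes.

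**Figure D4:**
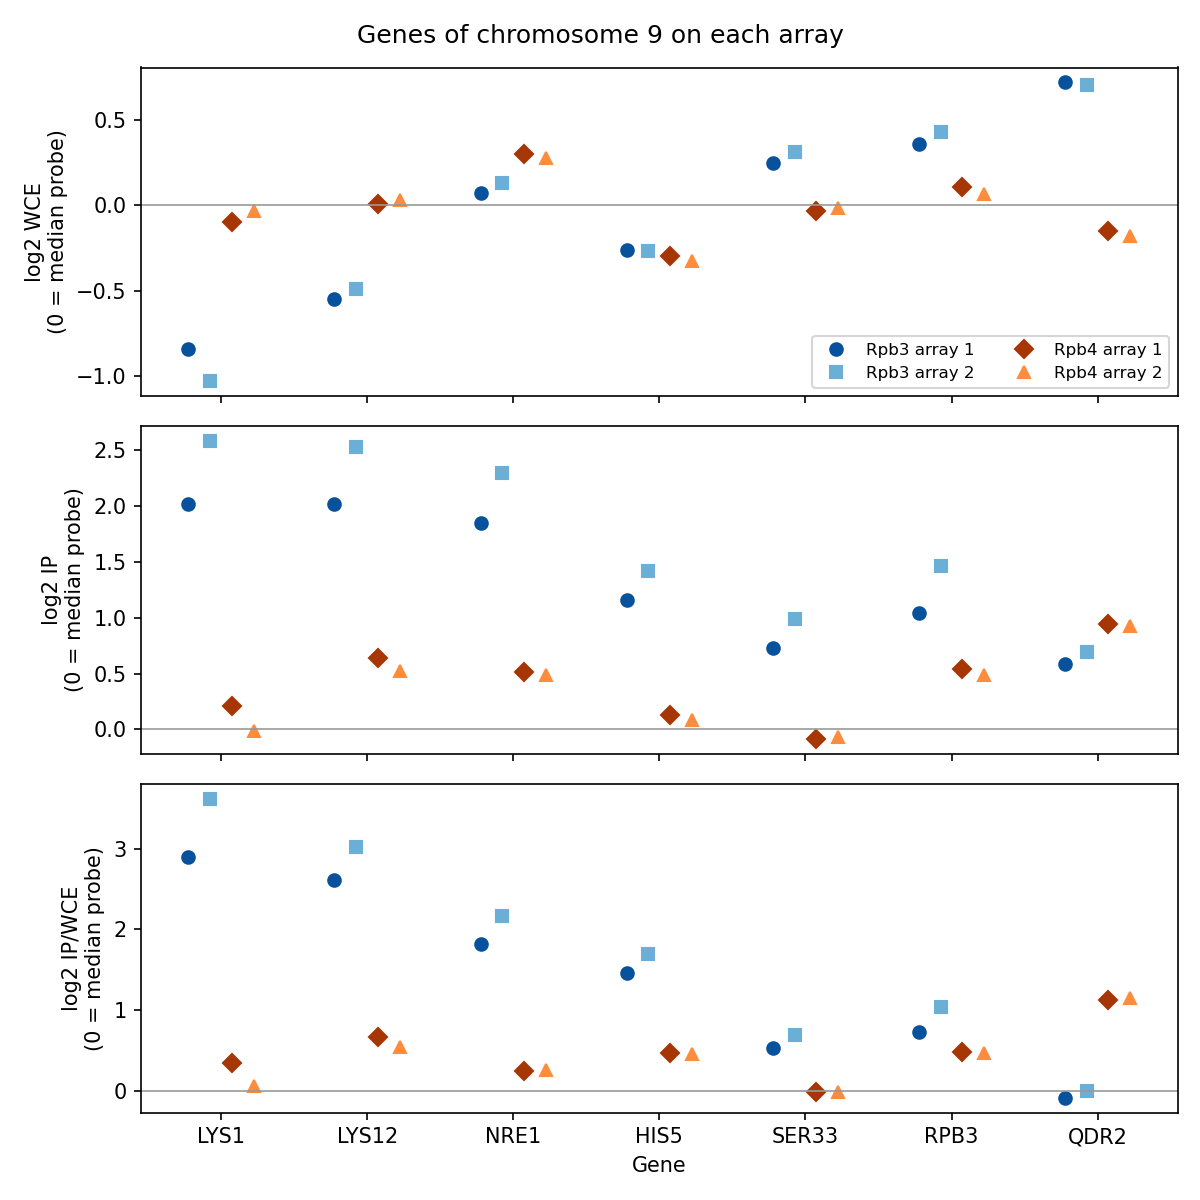
Gene values on each of the 4 arrays for LYS1, LYS12, NRE1, HIS5, SER33, RPB3 and QDR2, in WCE (top), IP (middle) and IP/WCE (bottom), each on a log2 scale where 0 is the median probe. Each point is 1 array. LYS1 and LYS12 have lower WCE and higher IP on both Rpb3 arrays, and QDR2 has the opposite order in both channels.

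RPB3 (YIL021W, probes from 312899 to 313699) is the locus that carries the tag in 1 of the strains. Its 4 probes read the gene and not the tag, so they do not check the strains' labels. The WCE signal was 0.36 and 0.43 on the Rpb3 arrays, and 0.11 and 0.07 on the Rpb4 arrays, a difference of -0.30 (limma adjusted p = 0.00927) that lay nearer 0 than the median gene of the chromosome. Without Rpb4 array 2 that difference was -0.28. The IP/WCE level was 0.73 and 1.04 with Rpb3, and 0.47 and 0.46 with Rpb4, and the difference of -0.42 ± 0.12 did not pass (adjusted p = 0.165). Among the probes of TIM44, RPB3 and HIS6 in this stretch, all had a lower WCE mean with Rpb4, from -0.47 to -0.16.

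Against the median probe, 98 genes were higher and 54 lower with Rpb3 (limma, against 38.4% and 29.4% of all genes), and 75 were higher and 57 lower with Rpb4 (against 37.9% and 25.9%). The shares on chromosome 9 were 49.7% and 27.4% with Rpb3, and 38.1% and 28.9% with Rpb4. The Rpb4 counts were 33 and 17 without Rpb4 array 1, and 29 and 18 without Rpb4 array 2. The count of 54 was 34 without either Rpb4 array. With a loess fit the Rpb3 counts were 36 and 111.

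With Rpb3 the highest genes after LYS1 and LYS12 were CSS1 (2.70), RPL2B (2.29), RPL16A (2.24), YIL134C-A (2.23, 1 probe), RPL34B (2.21) and GPP1 (2.16). With Rpb4 the order from the top was CSS1 (2.45), GPP1 (1.91), RPL2B (1.80), RPL34B (1.67), RPL16A (1.62), YIL134C-A (1.42) and RPL40A (1.36), with YIL014C-A left out because its WCE signal on Rpb4 array 2 lay in the range of blank spots. The SE of each of these levels was 0.23 or less, and below CSS1 neighbours in either order lay no farther apart than that. CSS1 stood at 2.25 and 3.16 on the Rpb3 arrays and at 2.43 and 2.47 on the Rpb4 arrays, where the groups overlapped. GPP1, which encodes a glycerol-phosphate phosphatase, stood at 1.95 and 2.38 with Rpb3, and at 1.86 and 1.97 with Rpb4.

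At the other end, DAL1, the allantoinase gene, was lowest with both subunits, at -0.88 and -0.82 on the Rpb3 arrays and -0.94 and -0.90 on the Rpb4 arrays. DAL4, the allantoin permease gene, stood at -0.85 with Rpb3 and -0.81 with Rpb4. RGI2, a gene of respiratory growth, stood at -0.80 and -0.87, and RNR3, a DNA damage-inducible subunit of ribonucleotide reductase, at -0.64 and -0.71. DAL2, the allantoicase gene, was at -0.60 and -0.74. All 5 genes were below the median probe with each subunit (limma adjusted p from 0.000311 to 0.00119).

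**Figure D5:**
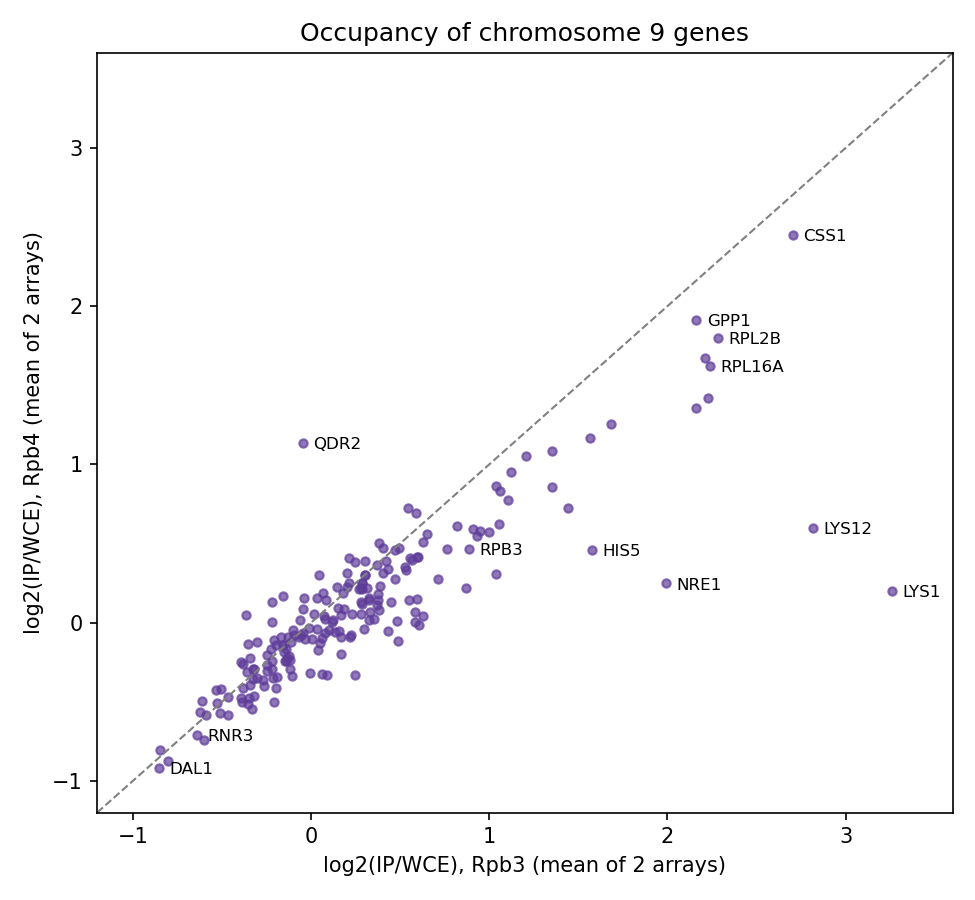
Log2(IP/WCE) of 196 genes of chromosome 9 with Rpb3 (horizontal) and with Rpb4 (vertical), as means of 2 arrays, where 0 is the median probe and the dashed line marks equal values. YIL014C-A is not drawn. LYS1, LYS12, NRE1 and HIS5 lie below the line and QDR2 above it, while CSS1, at 2.70 and 2.45, lies near it.

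The gene lists below are read against all chromosome 9 genes, of which 92.4% were lower with Rpb4 in WCE, 48.7% in IP and 6.09% in the ratio. For the levels, 49.7% of these genes were above the median probe and 27.4% below it with Rpb3. With Rpb4 the shares were 38.1% and 28.9%. By function, the 5 cytosolic ribosomal protein genes (RPL2B, RPL34B, RPL16A, RPL40A and RPS24B) were all above the median probe with both subunits, with a median level of 2.21 with Rpb3 and 1.62 with Rpb4. None passed for the ratio difference, whose median was -0.54, against 0.02 over all genes. Their WCE differences, from -0.33 to -0.19, lay nearer 0 than the median gene of the chromosome, and 4 of the 5 passed as lower. RPL2B stood at 2.12 and 2.45 with Rpb3, and at 1.78 and 1.82 with Rpb4. None of their IP differences passed (median -0.83).

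Of the 6 genes of the DAL cluster, 5 were below the median probe with each subunit, at a median of -0.45 with Rpb3 and -0.55 with Rpb4. All 6 were lower with Rpb4 in WCE (from -0.45 to -0.37), 3 in IP and none in the ratio (median -0.07). The 5 genes of meiosis and sporulation, which serve a programme that cells in rich medium do not run, had median levels of -0.51 and -0.42, with 5 below the median probe with Rpb3 and 4 with Rpb4. XBP1, a stress-induced repressor gene counted both there and among the regulators, had the largest positive ratio difference of these 2 lists, at 0.35 (adjusted p = 0.123). With a loess fit within arrays it was 0.70 and passed.

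The 6 genes of the transcription and chromatin machinery, among them RPB3, STH1, the ATPase gene of the RSC remodeller, and SSL2, a helicase gene of TFIIH, were all above the median probe with both subunits (medians 0.40 and 0.39). All 6 were lower in WCE, 4 in IP and none in the ratio (median -0.05). Of the 6 genes for protein folding, proteasome and tRNA charging, 4 were above the median probe with each subunit, led by RPN2, a proteasome subunit gene (1.06 and 0.83), and none passed in the ratio (median -0.23). Of the 8 measured genes of carbon metabolism and respiration 4 were above and 2 below with Rpb3, and 3 and 2 with Rpb4, with GPP1 the highest and SUC2, the invertase gene, the lowest (-0.51 and -0.57).

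Of the 9 nutrient and stress regulators 5 were above the median probe with Rpb3 and 4 with Rpb4, and all 9 were lower in WCE. The level counts stand beside 49.7% and 38.1% of all chromosome 9 genes. Of the 6 genes of the secretory pathway 4 were above with Rpb3 and 1 with Rpb4, with SEC24, a gene of the COPII vesicle coat, highest at 0.49 and 0.47. None of these 15 genes passed in the ratio. The 4 redox defence genes had median levels of 0.00 and -0.04 and none passed in the ratio. Of the 6 measured genes of the cell wall and surface 2 were above and 3 below with each subunit, with SIM1 highest at 1.12 and 0.95, and PRM5 was the 1 that passed in the ratio. In WCE all measured members were lower in 9 of the 12 lists, all but the ribosomal, amino acid and cell wall lists, and such counts stand beside the 92.4% of all chromosome 9 genes that were lower.

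The 197 genes were put in 4 groups of nearly equal size by their mean IP/WCE level over all 4 arrays, a level that shares its arrays and channels with the differences. The median WCE difference was -0.43 in the lowest group, -0.44 and -0.42 in the middle groups and -0.36 in the highest. The median IP difference was -0.49, -0.50, -0.58 and -0.68 in the same order. On the other chromosomes genes of the same ranges of occupancy had medians of 0.03, 0.01, -0.01 and -0.02 in WCE, and of 0.07, 0.03, -0.01 and -0.14 in IP. In the highest group 35 of 49 genes were lower in WCE and 15 in IP, against 50 and 21 of 50 in the lowest.

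By annotation, the WCE difference was -0.43 inside genes, -0.41 in promoters, -0.40 in divergent promoters and -0.44 downstream of genes. On the other chromosomes it was 0.003, 0.09, 0.09 and 0.09 in the same order, so the classes were less level there. The IP/WCE difference was -0.07 inside genes, -0.18 in promoters, -0.25 in divergent promoters and -0.08 downstream. On the other chromosomes the ratio differences of the same classes were 0.04, -0.13, -0.19 and -0.05, in the same order of classes.

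A short stretch of the left arm gave little signal in the Rpb4 strain. It was covered by 4 neighbouring probes between 324768 and 325613, of which 1 lies inside YIL014C-A and the others downstream of it or between it and MNT3. Inside YIL014C-A the WCE signal was 0.91 and 0.78 on the Rpb3 arrays, and -3.45 and -7.93 on the Rpb4 arrays. The WCE differences of the 4 probes ran from -6.54 to -4.94 and all passed among the probes (limma adjusted p from 0.00029 to 0.0169), while the fit over genes gave YIL014C-A an adjusted p of 0.0696. The IP signals of the probe in YIL014C-A were 0.17 and 0.73 with Rpb3, and -3.72 and -5.62 with Rpb4.

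On Rpb4 array 2 the background-subtracted WCE signals of the 4 probes ran from 22 to 98 intensity units, and on Rpb4 array 1 from 188.5 to 751. The 95th percentile of the blank spots was 84.0 and 98.4 units on these arrays. On each Rpb4 array the higher of the probe signal and the 95th percentile of 684 blank spots was taken. The mean of these log2 levels over the 2 Rpb4 arrays was the bound on the Rpb4 group mean. With that bound the Rpb4 mean at the 4 probes was at least 30.7- to 56.4-fold below the Rpb3 mean in WCE. In IP it was at least 29.2- to 41.1-fold lower. The bounds do not hold for Rpb4 array 1 alone, which read -3.45 in WCE inside YIL014C-A, against a bound of -4.97. A ratio of IP to WCE in the Rpb4 strain is not given for them. On Rpb4 array 1 the signals were above those of Rpb4 array 2 at all 4 probes in both channels. The genes on either side showed the shift of the chromosome and no more: BAR1, which encodes a secreted protease that cleaves alpha factor, had a WCE difference of -0.44, and MNT3, a mannosyltransferase gene, had -0.41.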

How the data were processed

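The 4 arrays comprised 2 with TAP-tagged Rpb3 and 2 with TAP-tagged Rpb4, grouped by the labels. Fragments were about 400 to 500 bp long, and the arrays carried 60-nucleotide probes about 290 bp apart. Scanner images were read with Agilent Feature Extraction 9.1 according to the submitters' processing notes. Per the file headers, the deposited columns give foreground and background intensity of both channels, normalized IP and WCE intensity, a p-value and a score of each array, a log2 ratio and flags. On the values, the deposited normalized IP intensity equals foreground minus background minus a constant, and the WCE one is scaled by a further factor per array (0.690, 0.446, 0.808 and 0.928). Their quotient on a log2 scale is the deposited ratio. The series table held the same log2 ratios and gave no separate alternative, and its rows name no probe. The authors' p-values and scores were not used here.

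For each channel, log2(foreground minus background) was centred on the array's median data probe, and log2(normalized IP/normalized WCE) likewise, with no loess or quantile step. Gene values are means over the probes inside a gene by the files' annotation. All 197 names were matched to an R64 table, used for names only. Probe and gene values were fitted over the whole table with the R 4.3.3 package limma 3.58.1 (both groups in 1 fit by lmFit, then eBayes), two-sided, with Benjamini-Hochberg adjustment at 0.05. A further fit had every chromosome centred on its own median probe in each array. The fits were tested on simulated data. Medians of chromosomes and windows have no test. All 4 arrays lay on 1 slide, so no slide block could be fitted. Python 3.11.15 with pandas 2.3.3, numpy 2.4.6 and matplotlib 3.10.9 made the tables and figures. The number of arrays limits the precision.

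The members, the 12 gene lists and the rules were chosen with earlier results of these data known. Named genes were RPB3, LYS1, LYS12 and QDR2, the first and last 3 genes, the 5 largest changes each way past 0.05 without overlap, the 8 highest and 5 lowest levels, and the 2 highest and 1 lowest of each list. The others that the text names (among them HIS6, MET28, PRK1, RPR2, YIR018C-A, BAR1 and MNT3) were chosen after their values were seen. No sequences are printed.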

Additional observations from a re-analysis of the deposited data

How the results depend on the processing

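The WCE counts changed least. With all 4 arrays, the alternatives called 1324 (normexp) to 1410 chromosome 9 probes lower, where 1512 is the most possible. Genes called lower numbered 181 to 186 of at most 197, and 149 of 155 among genes with at least 3 probes. The median WCE difference was -0.63 with normexp background correction and -0.40 with quantile normalization, the IP difference -0.86 and -0.49, and the highest WCE window -0.44 and -0.34. The median IP/WCE difference was -0.13 with normexp and 0.23 with loess within arrays. Centring on probes outside chromosome 9 and the authors' normalized signals changed no count by over 1.5 times and no median by more than the spread between arrays.

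The counts of IP and ratio calls were less stable, and the cause was not tested. IP calls per probe numbered 314 with normexp, 430 with quantile normalization and 0 without the dimmest 10% of probes, where 1250 chromosome 9 probes were at an unadjusted p under 0.05 (limma). Ratio calls per probe numbered 54 with normexp and 35 with quantile normalization. IP calls per gene numbered 169 with normexp, 179 with quantile normalization and 50 with medians over probes. Ratio calls per gene numbered 35 with normexp and 7 with loess, of which 3 were higher and 4 lower. Within chromosomes, WCE calls numbered 40 with normexp (28 higher). IP calls there numbered 16 with normexp and 21 with quantile normalization, and ratio calls 30 and 16. With loess the Rpb3 level counts were 36 above and 111 below.

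Leaving out each array in turn gave 1253 to 1454 WCE probes lower, 47 to 1489 IP calls and 22 to 980 ratio calls per probe. Per gene it gave 163 to 189 in WCE, 3 to 197 in IP and 0 to 127 in the ratio. Within chromosomes the ranges were 6 to 25, 2 to 152 and 5 to 119. Genes above the median probe numbered 84 to 109 with Rpb3 and 29 to 90 with Rpb4, and genes below it 34 to 66 and 17 to 78. The chromosome medians ranged from -0.44 to -0.41 in WCE, -0.58 to -0.50 in IP and -0.09 to -0.08 in the ratio, and the highest WCE window from -0.38 to -0.35.

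For 42 genes named with values, 101 gene values were recomputed 1152 times, of which 1041 kept their call, 61 lost the threshold, 47 gained it and 3 changed sign where one of the values had passed. Those 3 were the ratio differences of RPR2 (0.0334) and YIL165C (0.0351) with loess, and of CSS1 without Rpb3 array 2 (0.20, with a range of -0.71 to 0.20 over the arrays left out). The recomputed values include the fits with 1 array left out, whose calls measure the spread of 1 strain's pair. No paired analysis was possible because the labels number no replicates. Signal over background limits the values at YIL014C-A and its 3 neighbouring probes in the Rpb4 strain, for which bounds are given.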
